A study of Mus musculus with 3 samples.

Results

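*Cd74* and 6 genes of the MHC class II pathway (*H2-Aa*, *H2-Ab1*, *H2-Eb1*, *H2-DMa*, *H2-DMb1* and *Ciita*) were followed in CD8+ T cells taken from melanomas, as 7 of the 33696 genes counted. They were found by their symbols, and the set was selected with levels from these same libraries known, so the levels below are a description. Pmel T cells carry a T cell receptor for the melanoma antigen gp100. Thy1.1+ pmel cells were activated with gp100 peptide and preconditioned with sIL-2, 2/21-trikine (the IL-2/21-Trikine of the study, an engineered cytokine) or sIL-2 + IL-21. They were then transferred into irradiated Thy1.2+ C57BL/6 mice with subcutaneous B16F10 melanoma. Mice given sIL-2 or sIL-2 + IL-21 cells received IL-2 afterwards, and mice given 2/21-trikine cells received the Trikine, so the 2/21-trikine library differs from the others in both steps. Tumors were taken on day 18 after tumor injection, their live Thy1.1+CD8+ cells were sorted, and 1 library was made per group. Where 3 values follow each other below, they are in the order sIL-2, 2/21-trikine, sIL-2 + IL-21. How many mice contributed to each library is not given in the sources used here. The host mice are Thy1.2+, and the sort for Thy1.1+CD8+ cells was meant to leave their cells and the tumor cells behind. With 1 library per group there was no replicate and no test between groups, and every interval in brackets is an exact 95% interval that covers counting error only.

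MHC class II molecules present peptides from endosomes to CD4+ T cells and are mainly known from dendritic cells, macrophages and B cells. The α and β chains assemble on the invariant chain, CD74, which blocks the peptide groove and guides the complex to endosomes, where cathepsins degrade it and H2-DM exchanges the last fragment for peptide. CIITA, induced by interferon-γ in many cells, is recruited to X and Y boxes of class II promoters by RFX, CREB and NF-Y. CD74 at the cell surface is also a receptor for the cytokine MIF. Activated human T cells carry class II molecules, while mouse T cells are usually described as making little of them.

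Promoter stretches are shown for the members with a RefSeq entry (GRCm38.p6), because these genes did not move together in the libraries and the X and Y boxes are where their shared regulators bind. Of the 7 members, 4 had an entry. Each line gives the 150 bases before the annotated start on the gene's own strand, and capitals mark matches on either strand to GATTGG (the Y box), AACNNNTGA (a core of the X box) or TGACGTCA (the CRE, bound by CREB).
H2-Aa (chr17:34287824-34287973, minus strand): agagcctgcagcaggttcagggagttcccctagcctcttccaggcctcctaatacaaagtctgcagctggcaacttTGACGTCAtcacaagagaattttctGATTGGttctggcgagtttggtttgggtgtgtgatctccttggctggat
H2-Eb1 (chr17:34305717-34305866, plus strand): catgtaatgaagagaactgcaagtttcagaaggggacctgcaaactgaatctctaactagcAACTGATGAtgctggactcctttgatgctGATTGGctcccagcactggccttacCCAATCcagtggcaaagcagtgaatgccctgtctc
H2-DMb1 (chr17:34153041-34153190, plus strand): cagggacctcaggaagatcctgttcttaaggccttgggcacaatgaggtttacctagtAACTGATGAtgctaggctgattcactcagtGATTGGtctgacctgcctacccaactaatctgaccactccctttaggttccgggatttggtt
H2-DMa (chr17:34122682-34122831, plus strand, the first of 2 entries): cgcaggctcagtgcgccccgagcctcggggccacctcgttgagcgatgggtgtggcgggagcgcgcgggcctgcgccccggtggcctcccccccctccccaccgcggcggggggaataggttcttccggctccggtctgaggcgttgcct
*H2-Eb1* and *H2-DMb1* held the X box core and the Y box, *H2-Aa* held the CRE and the Y box, and neither *H2-DMa* entry held any of these letters in this window. Among the 32851 promoter entries, 10.9% held GATTGG, 5.74% held AACNNNTGA, 1.36% held TGACGTCA, and 0.557% held both GATTGG and AACNNNTGA. No motifs overlapped in the lines shown. A match is a description of the letters and not a measured binding site. Only these exact letters were sought, so a line without a match may still hold a variant of a box. In the *H2-Aa* line AAC and TGA stand close together, but without the spacing sought. Which *H2-DMa* entry is used in these cells was not tested.

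T cells were defined as cells within the study's limits on depth and mitochondrial share that had a *Cd3e* UMI, a UMI being 1 captured RNA molecule, and fewer than 3 UMIs of the myeloid gene *Lyz2*. This gave 7513 sIL-2, 11952 2/21-trikine and 9425 sIL-2 + IL-21 T cells, with medians of 13300, 11239 and 14553 UMIs per cell. *Cd8a* was found in 91.9%, 86.3% and 88.0% of them. The other kept cells numbered 247, 1347 and 373, and most were shallow barcodes, with medians of 1381, 914 and 1103 UMIs. Pairs of libraries shared 18 to 43 cell barcodes. Levels are CPM, the UMIs of a gene divided by all UMIs of the cells named and multiplied by 1e6. Because the 3′ counts are not scaled to gene length, levels are compared between libraries and between sets of cells, and not between genes.

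*Cd74* was higher in T cells of the 2/21-trikine and sIL-2 + IL-21 libraries than in the sIL-2 library. Its level in T cells was 14.9 CPM [14.3, 15.6] in the sIL-2 library, 49.98 [48.9, 51.1] in the 2/21-trikine library and 34.2 [33.3, 35.1] in the sIL-2 + IL-21 library. A *Cd74* UMI was found in 10.3% of sIL-2, 25.03% of 2/21-trikine and 25.8% of sIL-2 + IL-21 T cells. Since cells of the sIL-2 + IL-21 library had the most UMIs, each cell was thinned at random to 2000 UMIs, which left out 98, 651 and 106 shallower cells. The shares became 1.92% [1.62, 2.25], 7.14% [6.67, 7.63] and 6.31% [5.82, 6.82]. The sIL-2 library stayed lowest, and the intervals of the other libraries overlapped. These libraries held no second cell type known to lack *Cd74* in numbers that would give the share due to free RNA.

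The chains of the class II dimers fell into different orders. *H2-Aa*, the α chain of I-A, was at 2.47 [2.21, 2.76], 8.82 [8.37, 9.29] and 3.40 [3.13, 3.69] CPM. *H2-Eb1*, the β chain of I-E, was at 3.54 [3.23, 3.88], 8.54 [8.10, 9.003] and 4.09 [3.79, 4.41] CPM. Both were highest with 2/21-trikine, and both were rare, with a UMI in 1.18% to 3.77% of T cells for *H2-Aa* and in 2.42% to 5.21% for *H2-Eb1*. *H2-Ab1*, the β chain that pairs with *H2-Aa*, was instead highest with sIL-2 + IL-21, at 15.8 [15.1, 16.5], 17.6 [16.9, 18.2] and 22.2 [21.5, 22.9] CPM. It was found in 17.1% of sIL-2, 16.4% of 2/21-trikine and 25.6% of sIL-2 + IL-21 T cells. After thinning, the *H2-Ab1* shares were 2.40% [2.06, 2.77], 2.83% [2.53, 3.15] and 3.66% [3.29, 4.06], so the order of sIL-2 and 2/21-trikine was not resolved and sIL-2 + IL-21 stayed highest.

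*H2-DMa*, a subunit of the peptide editor, was close to level over the libraries, at 17.4 [16.7, 18.1], 20.3 [19.6, 21.0] and 17.9 [17.2, 18.5] CPM. It was found in 21.9% to 24.8% of T cells. Its partner *H2-DMb1* had only 77, 172 and 126 UMIs in T cells, or 0.594 [0.469, 0.743], 1.05 [0.900, 1.22] and 0.754 [0.628, 0.898] CPM. *Ciita*, the transactivator, had 28, 49 and 51 UMIs, or 0.216 [0.144, 0.312], 0.299 [0.222, 0.396] and 0.305 [0.227, 0.401] CPM. The intervals of *Ciita* overlapped between all libraries, so a difference was not detectable at this depth.

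**Figure D1:**
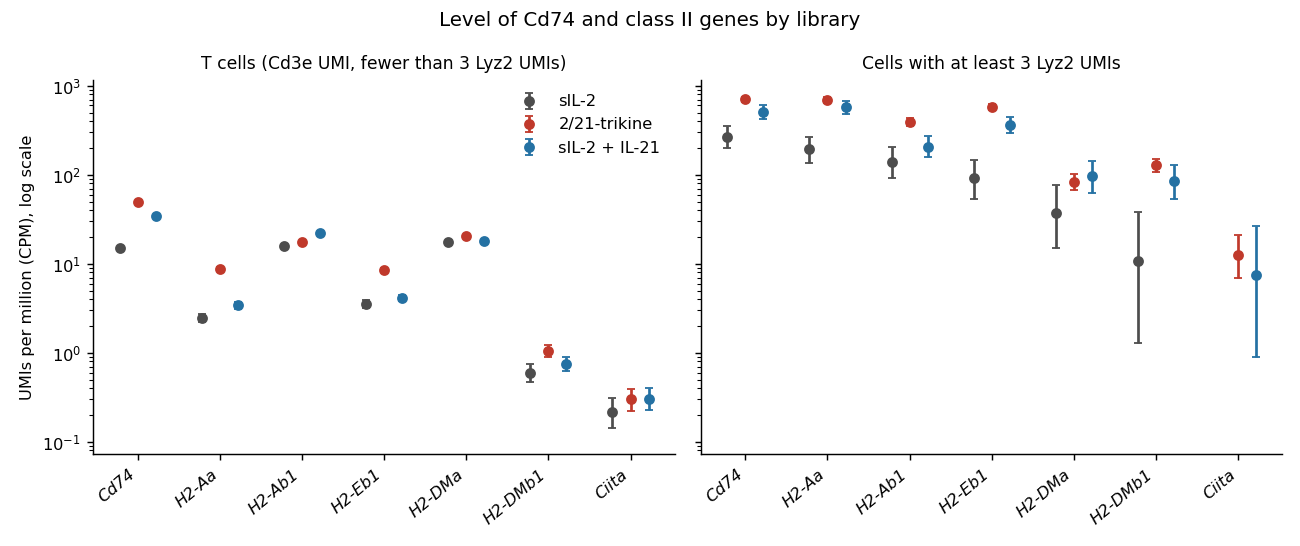
Level of each gene (CPM, log scale) in T cells (left) and in cells with at least 3 *Lyz2* UMIs (right), 1 point per library with its exact 95% counting interval; *Ciita* had 0 UMIs in the sIL-2 cells on the right and is not drawn there. In T cells *Cd74* runs from 14.9 to 49.98 CPM between libraries while *H2-DMa* stays between 17.4 and 20.3 CPM.

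A log2 ratio of at least 0.5 in either direction was used as a mark of size, and its frequency over the 11245 genes with a mean of at least 1 CPM in T cells is given as the background. Of the 7 members, 5 reached that mean, and *H2-DMb1* and *Ciita* did not. For 2/21-trikine over sIL-2, 4 of 7 members were past the mark on the higher side and 0 on the lower side. Of the 5 members at 1 CPM, 3 were higher and 0 lower, where 3.38% and 7.67% of genes at 1 CPM were. Without the 1 CPM limit, 17.2% of 22949 genes were higher and 20.6% lower. The 4 were *H2-Aa* with a log2 ratio of 1.84 [1.66, 2.02], *Cd74* with 1.74 [1.67, 1.82], *H2-Eb1* with 1.27 [1.12, 1.42] and *H2-DMb1*, the one of them under 1 CPM, with 0.82 [0.43, 1.23]. A single 2/21-trikine barcode held 25.3% of that library's *H2-Aa* UMIs, which the counting interval does not take into account. Under 11 alternatives the *H2-Aa* ratio ran from 1.28, without the 5% of deepest cells, to 2.28, and it was 1.51 with equal weight per cell. *H2-DMa* had 0.22 [0.14, 0.30], *H2-Ab1* 0.16 [0.07, 0.24] and *Ciita* 0.47 [-0.23, 1.19]. Because the members were chosen with these contrasts known, the counts are not read against the background.

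For 2/21-trikine over sIL-2 + IL-21, 3 members, all at 1 CPM, were past the mark on the higher side (4.33% of genes at 1 CPM). On the lower side there were 0 (5.79%). The 3 higher members were *H2-Aa* with 1.38 [1.23, 1.52], *H2-Eb1* with 1.06 [0.93, 1.20] and *Cd74* with 0.55 [0.50, 0.60]. *Cd74* lay close to the mark, and its log2 ratio was 0.34 when every cell was given the same weight and 0.26 after thinning. The *H2-Aa* ratio fell below the mark, to 0.35, when T cells with a UMI of macrophage, dendritic, B cell or neutrophil markers were left out, and was 0.71 without the 5% of deepest cells. The *H2-Eb1* ratio was 0.57 without those marker-bearing cells and 0.55 after thinning. *H2-Ab1* went the other way, with -0.34 [-0.41, -0.27]. For sIL-2 relative to sIL-2 + IL-21, 0 members were past the mark on the higher side (11.3% of genes at 1 CPM). On the lower side there was 1, *Cd74* with -1.19 [-1.27, -1.12] (7.27%). *H2-Ab1* had -0.49 [-0.57, -0.41], *H2-Aa* -0.46 [-0.66, -0.26], *H2-Eb1* -0.21 [-0.38, -0.04] and *H2-DMa* -0.04 [-0.12, 0.04]. The median over the 7 members was 0.82, 0.48 and -0.46 in the order of the 3 comparisons. Over the genes with at least 1 CPM it was -0.09, -0.00 and 0.08. These sets are not alike, since the 7 include *H2-DMb1* and *Ciita*, which were under 1 CPM. The 0.82 and 0.48 are the ratios of *H2-DMb1* itself. The comparisons share libraries and are not independent of each other.

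**Figure D2:**
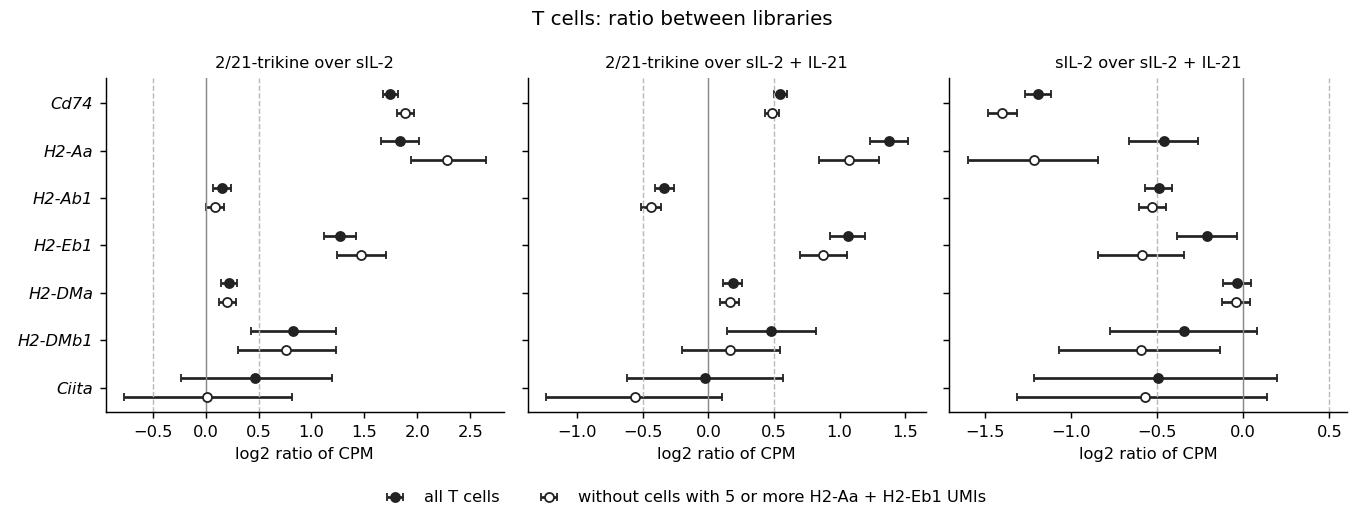
Log2 ratio of CPM between libraries in T cells for each gene, with exact 95% counting intervals; filled points use all T cells, open points leave out T cells with at least 5 UMIs of *H2-Aa* and *H2-Eb1* together, and dashed lines mark log2 ratios of -0.5 and 0.5. *Cd74*, *H2-Aa* and *H2-Eb1* lie furthest right for 2/21-trikine over sIL-2, while *H2-DMa* lies between 0.22 and -0.04 in all panels with all T cells.

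The UMIs of these genes were spread over T cells in different ways. *H2-Aa* was concentrated in few cells: the 1% of T cells with most of its UMIs held 95.6%, 75.8% and 75.4% of them. These were 75, 120 and 94 cells, and only 89, 450 and 234 T cells had an *H2-Aa* UMI, so rarity sets part of these shares. The highest 7.87%, 2.89% and 11.5% of its positive cells held at least as many of its UMIs as the rest. By that measure 2/21-trikine was the most uneven. A single 2/21-trikine barcode with 365 *H2-Aa* UMIs held 25.3% of that library's total. That barcode had 1 *Cd3e* UMI and 778 UMIs of the melanoma list (*Pmel*, *Dct*, *Tyrp1*, *Mlana*, *Tyr*), so its markers go against its place among the T cells. For *Cd74* the top 1% of cells held 41.0%, 21.9% and 17.3% of UMIs. Such a share rises where fewer cells are positive, and *Cd74* was found in 776, 2992 and 2436 T cells. The highest 14.9%, 17.9% and 21.0% of these positive cells held at least as many of its UMIs as the rest. By both measures the sIL-2 total was the most unevenly held, and by the latter the libraries differed less. For *H2-Ab1* the shares were 19.8%, 21.1% and 12.9%. Of the 5 members at 1 CPM, *H2-DMa* was the most even, with 10.7%, 12.5% and 10.3% in the top 1% and no T cell above 17 UMIs, and 78.1% to 79.8% of its positive cells had a single UMI.

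**Figure D3:**
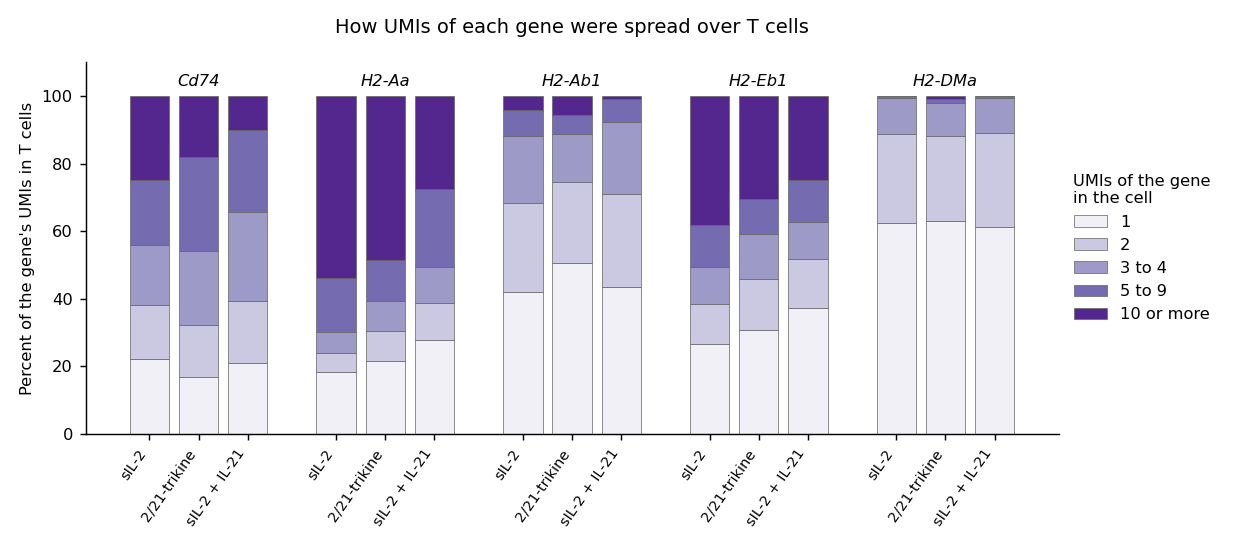
Percent of each gene's UMIs in T cells (vertical axis) that lay in cells with 1, 2, 3 to 4, 5 to 9 or 10 or more UMIs of that gene, 1 bar per gene and library. The dark top segment is tall for *H2-Aa* and *H2-Eb1* and nearly absent for *H2-DMa*, for which no T cell had over 17 UMIs.

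T cells with at least 5 UMIs of *H2-Aa* and *H2-Eb1* together, a cutoff chosen after the values were seen, numbered 28, 78 and 43, or 0.373%, 0.653% and 0.456% of T cells. They are called class II-rich below. They held 19.96%, 12.1% and 7.57% of the T cells' *Cd74* UMIs, but only 5.88%, 10.4% and 3.30% of *H2-Ab1* and 1.55%, 2.98% and 0.939% of *H2-DMa* UMIs. Without them the *Cd74* log2 ratio was 1.88 for 2/21-trikine over sIL-2, 0.49 for 2/21-trikine over sIL-2 + IL-21 and -1.40 for sIL-2 relative to sIL-2 + IL-21. The *H2-Aa* log2 ratio of sIL-2 relative to sIL-2 + IL-21 moved most of the members' ratios, from -0.46 to -1.22 [-1.60, -0.84]. This move follows from the cutoff, which is set on *H2-Aa* and *H2-Eb1* UMIs themselves. It took away 75.3% of the *H2-Aa* UMIs of sIL-2 and 58.3% of those of sIL-2 + IL-21.

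Markers of other cell types in the class II-rich barcodes were measured beside those of the other T cells. T cell markers were present throughout: *Cd3d*, *Cd3g*, *Trac* and *Cd8b1* were each found in 26 of 28 sIL-2, at least 76 of 78 2/21-trikine and at least 42 of 43 sIL-2 + IL-21 class II-rich barcodes. The summed level of 7 T cell genes was 4228, 3828 and 4116 CPM in them, against 5054, 4443 and 4107 CPM in the other T cells. The summed level of 10 macrophage and monocyte genes was 18.7, 44.1 and 12.5 CPM in them, against 13.5, 7.62 and 10.8 CPM in the other T cells. The 9 dendritic cell genes gave 25.3, 97.99 and 44.1 CPM against 33.1, 25.03 and 26.6, and the 5 B cell genes gave 30.0, 33.3 and 24.9 against 19.6, 32.0 and 11.2. Several of these genes, such as *Zbtb46*, *Itgax*, *Cd68* and *Ighm*, were also found in the other T cells. The B cell genes *Cd79a* and *Ms4a1* and all 4 neutrophil genes were at 0 in the class II-rich barcodes of every library. Of 17 myeloid, dendritic and B cell markers present in under 1% of the other T cells, at least 1 UMI was found in 1 of 28, 10 of 78 and 3 of 43 class II-rich barcodes. Such a UMI was found in 1.74%, 1.56% and 1.83% of the other T cells. The 5 melanoma genes gave 420, 398 and 0.959 CPM, against 2.23, 3.22 and 1.93 in the other T cells, and came from 4, 7 and 1 barcodes. These were 14.3%, 8.97% and 2.33% of the class II-rich barcodes, and 3.09%, 3.50% and 3.04% of the other T cells had a melanoma UMI. Leaving out barcodes with a UMI of either kind kept 24, 63 and 39 class II-rich barcodes, which still held 355, 598 and 383 *Cd74* UMIs and 195, 334 and 266 *H2-Aa* UMIs. Of these, 21, 58 and 39 had a *Cd74* UMI and 19, 42 and 29 had an *H2-Ab1* UMI. The class II-rich barcodes were deeper than other T cells, with medians of 30124, 19441.5 and 16315 UMIs against 13272, 11197.5 and 14543.5. Whether some held more than 1 cell, and what part depth and the markers of other types have in their class II UMIs, was not tested.

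UMIs of each class II gene were also counted per *Cd74* UMI. In T cells that were not class II-rich, *H2-Aa* had 0.0510 [0.0402, 0.0640], 0.0673 [0.0613, 0.0738] and 0.0449 [0.0393, 0.0512] UMIs per *Cd74* UMI. In cells with at least 3 *Lyz2* UMIs the same ratio was 0.720 [0.456, 1.13], 0.983 [0.889, 1.09] and 1.12 [0.887, 1.43]. The value in T cells is lowered by leaving out the class II-rich cells. Over all T cells it was 0.165 [0.147, 0.186], 0.177 [0.167, 0.187] and 0.0995 [0.0912, 0.109], with intervals that also did not overlap those of the *Lyz2* cells. *H2-DMa* per *Cd74* UMI ran in the opposite direction. It was 1.43 [1.34, 1.53], 0.448 [0.430, 0.467] and 0.560 [0.535, 0.586] in T cells that were not class II-rich. In the *Lyz2* cells it was 0.140 [0.0536, 0.310], 0.119 [0.0950, 0.148] and 0.190 [0.120, 0.290]. These are ratios to *Cd74* and not levels. The *H2-DMa* level was higher in class II-rich T cells without melanoma or rare other-type markers, at 32.4, 37.0 and 33.1 CPM. In T cells that were not class II-rich it was 17.3, 19.9 and 17.8 CPM. In class II-rich T cells *H2-Ab1* had 0.311, 0.302 and 0.282 and *H2-DMa* had 0.0907, 0.1002 and 0.0648 UMIs per *Cd74* UMI. For each gene the intervals of the libraries overlapped, and the lowest *H2-DMa* value rests on 28 *H2-DMa* UMIs. Differences between libraries were not tested. In the other T cells *H2-Ab1* ranged from 0.358 with 2/21-trikine to 1.24 with sIL-2.

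**Figure D4:**
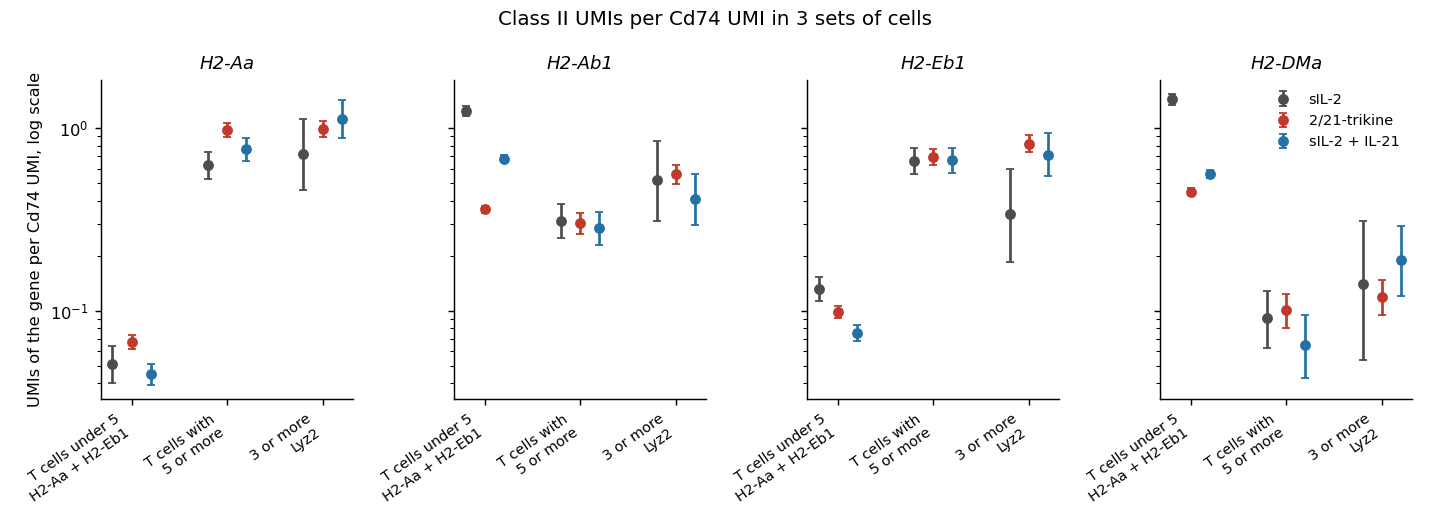
UMIs of each gene per *Cd74* UMI (log scale) in T cells with under 5 and with at least 5 UMIs of *H2-Aa* and *H2-Eb1*, and in cells with at least 3 *Lyz2* UMIs, 1 point per library with its exact 95% counting interval. The height of *H2-Aa* and *H2-Eb1* in the middle set is fixed by how that set was chosen. *H2-DMa* per *Cd74* UMI falls from 0.448 or more on the left to 0.190 or less in the other sets. This is a ratio to *Cd74* and not a fall in the *H2-DMa* level.

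In the cells outside the T cell definition, *Cd74* was at 111 [87.4, 140], 320 [301, 341] and 186 [160, 215] CPM, and *H2-Aa* at 94.8, 301 and 167 CPM. Few cells carried these UMIs, since *Cd74* was found in 15 of 247, 90 of 1347 and 33 of 373 of them. Cells with at least 3 *Lyz2* UMIs, which numbered 12, 33 and 10, held 50, 781 and 137 of the *Cd74* UMIs, at 267 [199, 353], 701 [653, 752] and 508 [426, 600] CPM. Of these cells 9, 26 and 7 also had a *Cd3e* UMI. *Ciita* was at 0, 12.6 and 7.42 CPM in them and *H2-DMb1* at 10.7, 127 and 85.3 CPM, in all cases from at most 142 UMIs. Barcodes with neither a *Cd3e* UMI nor 3 *Lyz2* UMIs had 24, 221 and 46 *Cd74* UMIs, of which 118 of the 221 came from a single barcode. T cells with 0 *Lyz2* UMIs had *Cd74* at 14.9, 49.6 and 34.1 CPM, beside 14.9, 49.98 and 34.2 CPM in all T cells. They made up 7475 of 7513, 11881 of 11952 and 9379 of 9425 T cells. The closeness follows from this overlap, and nothing is read from it.

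Within T cells thinned to 2000 UMIs, *Cd74* was found more often where *H2-Aa* or *H2-Eb1* was found. The class II-rich barcodes were included, and how much of this came from them was not tested. With *H2-Eb1* the shares with *Cd74* were 33.3%, 33.6% and 34.3%, against 1.83%, 6.83% and 6.10% without. A *Cd74* UMI was present in 6 of 22 sIL-2, 38 of 111 2/21-trikine and 21 of 48 sIL-2 + IL-21 T cells with *H2-Aa*, or 27.3%, 34.2% and 43.8%, against 1.84%, 6.87% and 6.12% of those without. With *H2-Ab1* the shares were 5.62% [2.73, 10.1], 18.4% [14.3, 23.1] and 10.3% [7.25, 14.0], against 1.82%, 6.81% and 6.16% without. With *H2-DMa* they were 1.65% [0.45, 4.16], 12.6% [9.60, 16.03] and 8.05% [5.33, 11.6], against 1.92%, 6.92% and 6.25%. The interval for *H2-DMa* excluded the share without it in the 2/21-trikine library only, and the difference between libraries was not tested. Most T cells with *Cd74* had no UMI of a class II chain at this depth, since *H2-Ab1* was found in 7.04%, 7.31% and 5.95% of them, *H2-Aa* in 4.23%, 4.71% and 3.57% and *H2-Eb1* in 4.93%, 5.45% and 4.08%.

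*Cd74* was next set beside 28 genes of T cell state, by its level in T cells with and without a UMI of each gene. Counting intervals lay above 0 in all 3 libraries for 5 of them: *Cd83* (a surface protein of activated lymphocytes and dendritic cells that stabilizes class II molecules), *Cd81* (a tetraspanin), *Ccr7* (the lymph node homing receptor), *Xcl1* (a chemokine that draws cross-presenting dendritic cells) and *Pdcd1* (PD-1). T cells with a *Cd83* UMI had *Cd74* at 44.7 [30.4, 63.4], 89.2 [75.0, 105] and 63.8 [52.3, 77.1] CPM, against 10.2, 41.4 and 34.6 CPM in those without. T cells with a *Cd81* UMI had 84.4 [44.9, 144], 109 [74.2, 155] and 59.4 [40.9, 83.4] CPM, against 11.04, 43.9 and 36.6. The levels with *Cd81* rest on 13, 31 and 33 *Cd74* UMIs. Class II-rich barcodes were included for all state genes, and their part in the *Cd74* levels was not tested. Among *Cd81*+ cells the intervals of sIL-2 and the other libraries overlapped, and the log2 ratio of 2/21-trikine over sIL-2 was 0.37 [-0.61, 1.43] in them, from 31 and 13 *Cd74* UMIs, and 1.99 [1.75, 2.24] in cells without *Cd81*. For *Cd83* the same ratio was 0.997 [0.43, 1.61] with and 2.02 [1.77, 2.29] without. The differences between these ratios were not tested. For *Penk*, the enkephalin precursor, *Cd74* in cells with over without it had log2 ratios of 0.93, 0.42 and 0.83, with the interval above 0 in 1 library.

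Genes of division, killing and stress did not share 1 direction. *Tox*, a factor of exhausted T cells, and the inhibitory receptor *Lag3*, which binds class II molecules, went with higher *Cd74* in 2 libraries, as did the granzyme *Gzmc*. *Mt2*, a metallothionein, went with lower *Cd74* in 2 libraries, with log2 ratios of -0.56 for 2/21-trikine and -0.87 for sIL-2 + IL-21 and -0.01 for sIL-2. *Mki67* had 0.08, 0.15 and -0.42, and *Tcf7*, a factor of stem-like T cells, had -0.71, 0.30 and 0.31. The excess of *Cd74* in 2/21-trikine over sIL-2 was present on both sides of these genes, with 1.97 [1.27, 2.77] in *Mki67*+ and 1.91 [1.66, 2.16] in *Mki67*- cells, and 2.82 [2.03, 3.73] in *Tcf7*+ and 1.81 [1.57, 2.06] in *Tcf7*- cells.

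*H2-Ab1* and *H2-DMa* were set beside the same 28 genes, and some of the genes named here also went with *Cd74*. *Gzmc* went with higher *Cd74* in 2 libraries, as given above. The *Cd74* interval also lay above 0 with *Prf1* in 1 library, and below 0 with *Ifng* and with *Ccl3* in 1 library each. *H2-Ab1* was higher in T cells with *Gzmc* in all 3 libraries, with log2 ratios of 0.73, 0.52 and 0.62, and lower in T cells with *Tcf7* in 2, with -2.13, -0.71 and -0.34. It was also lower with *Ifng*, the interferon-γ gene, in 2 libraries (-0.09, -1.08 and -0.50) and higher with *Prf1*, the perforin gene, in 2 (0.75, 0.55 and 0.26). With *Mt2*, which went with lower *Cd74* in 2 libraries, *H2-Ab1* was higher in 2 (1.11, 0.53 and 0.24). With *Bach2*, a stemness gene in the study, it was lower in 2 (-0.69, -0.22 and -0.34). *H2-DMa* was lower in T cells with *Ifng* (-0.47, -1.03 and -0.34) and with the chemokine *Ccl3* (-0.45, -0.76 and -0.56), each with the interval below 0 in 2 libraries. *H2-Aa* was higher with *Cd81* in all 3 libraries, by 3.40, 2.91 and 1.78. These ratios rest on 30, 149 and 63 *H2-Aa* UMIs in all thinned T cells. The class II-rich barcodes, with the melanoma-marked one among them, were included, and their part in the ratios was not tested. With 28 genes, 7 members and 3 libraries, some of these intervals will miss 0 by counting error alone.

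**Figure D5:**
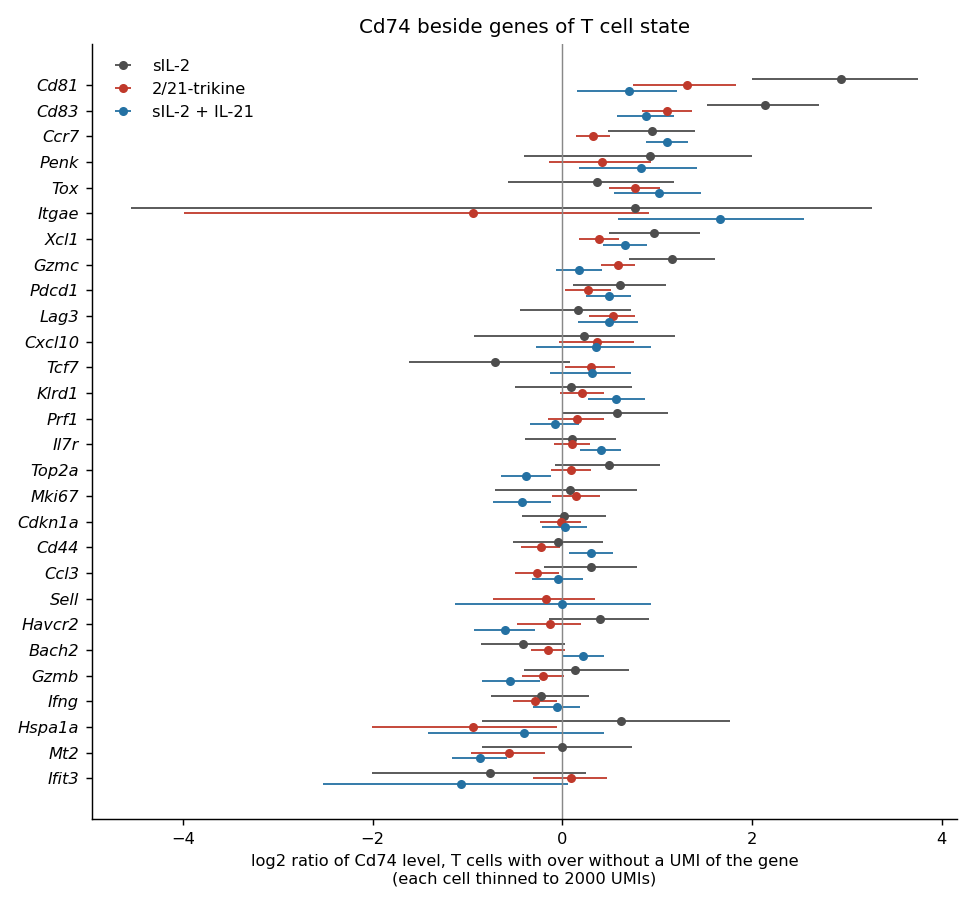
Log2 ratio of the *Cd74* level in T cells with over without a UMI of each state gene (horizontal axis), 1 point per library with its exact 95% counting interval, in cells thinned to 2000 UMIs; no point is drawn where 1 side had 0 *Cd74* UMIs. *Cd81* and *Cd83* stand at the top with all intervals above 0, and *Mt2* is near the bottom with -0.01, -0.56 and -0.87.

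Over 5016 genes, those most like *Cd74* were sought as the genes with the highest lowest-of-3 log2 ratio between thinned T cells with a *Cd74* UMI (142, 807 and 588 cells) and those without. *Cd83* led, with 2.04, 1.05 and 0.89 in the sIL-2, 2/21-trikine and sIL-2 + IL-21 libraries. It was followed outside the members by *Plk2* (1.45, 0.60 and 0.88), *Dscam* (1.93, 0.92 and 0.59), *Plxnc1* (1.06, 0.54 and 0.66) and *Marcksl1* (0.91, 0.51 and 0.56). *Tnfsf11* (RANK ligand), *Cd70* (the CD27 ligand), *Ccdc184*, *Cdkn2a* and *Tent5a* completed the first 10, with lowest values of 0.46 to 0.40. Of the members, *H2-Ab1* ranked directly behind *Cd83*, with 1.21, 1.54 and 0.70. When class II-rich cells and cells with a UMI of any macrophage, dendritic, B cell or neutrophil marker other than *Itgax* and *Itgam* were left out, *Cd83* still led, with 1.497, 1.35 and 1.29, and *Plk2* followed with 1.68, 0.88 and 1.07, while *Dscam* and *Cd70* were no longer among the first 20 genes outside the members. *H2-Ab1* no longer ranked among or above these 20 genes, through a lower ratio or a level too low to be compared.

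Other genes of the pathway were listed by role. The 7 genes of the promoter complex (*Rfx5*, *Rfxap*, *Rfxank*, *Nfya*, *Nfyb*, *Nfyc*, *Creb1*) had 0 members past the mark in any comparison. Nothing is read from this count, given the shares of genes at 1 CPM past it above. Their log2 ratios lay between -0.31 (*Rfxank*, 2/21-trikine over sIL-2) and 0.32 (*Rfxank*, sIL-2 relative to sIL-2 + IL-21). Their median was -0.06, 0.05 and 0.12 in the 3 comparisons. Among genes of the interferon-γ axis, the kinase *Jak2* was lower in 2/21-trikine over sIL-2, with -0.76 [-0.79, -0.73], and higher in sIL-2 relative to sIL-2 + IL-21, with 1.17 [1.14, 1.20]. *Gbp2*, an interferon-induced GTPase, had 0.55 [0.49, 0.61] in 2/21-trikine over sIL-2 + IL-21 and 0.68 [0.62, 0.75] in sIL-2 relative to sIL-2 + IL-21, and *Irf1*, an interferon-induced transcription factor, lay just under the mark at 0.50 in the former. *Cd74* was lower in sIL-2 relative to sIL-2 + IL-21, where *Jak2* and *Gbp2* were higher. It was higher in 2/21-trikine over sIL-2 + IL-21, where *Gbp2* and *Jak2*, with 0.41 [0.38, 0.44], were higher too. *Ifng* was at 878, 623 and 663 CPM, highest with sIL-2. Whether interferon-γ has a part in the *Cd74* levels was not tested.

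Of the 7 antigen processing genes, 6 reached 1 CPM. Of these, 1 higher and 1 lower, 2 higher and 1 lower, and 0 higher and 1 lower were past the mark in the 3 comparisons. The median over all 7 was -0.12, -0.13 and 0.10, beside -0.09, -0.00 and 0.08 over the genes with at least 1 CPM. *Ctss*, the cathepsin that trims the invariant chain, was highest with 2/21-trikine, at 57.1, 83.6 and 48.7 CPM, with log2 ratios of 0.55 [0.51, 0.59] against sIL-2 and 0.78 [0.74, 0.82] against sIL-2 + IL-21. *Ctsl*, another cathepsin, had 0.74 [0.53, 0.95] against sIL-2 + IL-21. *Ifi30*, the thiol reductase GILT, was highest with sIL-2 + IL-21, at 9.79, 13.4 and 18.1 CPM, and -0.88 [-0.98, -0.79] in sIL-2 relative to it. *Ctsd*, an aspartic cathepsin, was lower in 2/21-trikine than in the other libraries, with -0.52 and -0.68, and *Sppl2a*, which cleaves the last stub of CD74, had -0.12, -0.11 and 0.01. Of the 6 genes of surface handling, 4 reached 1 CPM, and 0 higher and 1 lower, 1 higher and 1 lower, and 1 higher and 2 lower were past the mark, with a median over all 6 of 0.24, 0.27 and -0.26. The shares of genes at 1 CPM past the mark, higher and lower, were 3.38% and 7.67%, 4.33% and 5.79%, and 11.3% and 7.27%. These lists of 4 to 7 genes are too short to be read against them. *Cd80*, a costimulatory ligand, had -0.56 for 2/21-trikine over sIL-2. *Cd86*, the relative of *Cd80*, was at 15.1, 14.5 and 6.88 CPM, and *Cd83* at 42.0, 57.2 and 62.3 CPM. *Marchf8*, a ligase that can remove class II from the surface, was at 1.41, 1.43 and 2.59 CPM. *Mif*, the ligand of CD74, was at 595, 772 and 773 CPM, and *Cd44*, its signaling partner, at 213, 170 and 156 CPM. *Cxcr4*, another partner, had a log2 ratio of 0.83 [0.78, 0.89] for sIL-2 relative to sIL-2 + IL-21, as the only one of the 4 CD74 partners with 1 CPM that passed the mark.

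Of the 5 further class II genes, only *H2-Oa* reached a mean of 1 CPM. *H2-Oa*, a subunit of the H2-DM inhibitor H2-O, was at 10.8, 9.26 and 11.2 CPM. Its partner *H2-Ob* had 93, 172 and 76 UMIs, with a log2 ratio of 1.21 [0.81, 1.62] for 2/21-trikine over sIL-2 + IL-21, and *H2-DMb2* had 79, 127 and 256 UMIs, with -0.98 [-1.30, -0.67]. *H2-Ea*, which C57BL/6 mice are known not to express, had 0 UMIs in the T cells of every library, where 3 UMIs would be 0.0232, 0.0183 and 0.0180 CPM. *Lag3* was at 93.3, 65.5 and 55.1 CPM, with -0.51 for 2/21-trikine over sIL-2 and 0.76 for sIL-2 relative to sIL-2 + IL-21. *Cd4*, the coreceptor for class II, had 54, 35 and 202 UMIs in these CD8-sorted T cells.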

How the data were processed

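The authors deposited, per library, raw UMI counts per gene and cell from Cell Ranger 9.0.0, without normalization. The study's methods name a GRCm39 reference and intronic reads, whereas the submitters' notes name mm10; the counts hold no coordinates. Cells with 500 to 120000 UMIs and at most 20% mitochondrial UMIs were kept. UMIs were summed over cells and scaled to CPM, with exact Poisson or Clopper-Pearson 95% intervals and exact conditional intervals for ratios. Shares were also taken after thinning cells to 2000 UMIs with a fixed seed. Named genes were all members, pathway genes past a log2 ratio of 0.5 or lowest and highest in their list, state genes, and the 10 genes most like *Cd74* (at least 20 CPM, 5 CPM added); a few others were named after their values were seen. The members and lists were chosen with earlier results of these data known. No doublet caller was run; alternatives left out deep or marker-bearing T cells. Alternatives covered the T cell definition, limits on cells, scaling, cell weight and depth. Scripts were tested on simulated data. Promoter sequences came from RefSeq (GRCm38.p6). Python 3.11.15, numpy 2.4.6, scipy 1.17.1, pandas 2.3.3 and matplotlib 3.10.9 were used. A result of the interferon-γ list and a marker gene are not reported here.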

Additional observations from a re-analysis of the deposited data

Results flagged for a closer look

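Barcodes outside the limits on UMIs and mitochondrial share, which entered no comparison of the report but only the alternative with all deposited barcodes, held *Cd74* UMIs above the 3 that a count of 0 allows: 30 in 45 sIL-2 barcodes, 31 in 51 2/21-trikine barcodes and 28 in 73 sIL-2 + IL-21 barcodes. They came from 11, 8 and 5 barcodes, at 15.8, 30.7 and 47.7 CPM, and 13, 7 and 4 of the removed barcodes were above the upper UMI limit.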

How the results depend on the processing

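No *Cd74* log2 ratio changed sign under the 11 alternatives, 2 of which (without class II-rich T cells, without shared barcodes) were added after seeing the data. For 2/21-trikine over sIL-2, the value of 1.74 became 1.84 in all kept cells, 1.89 without T cells bearing markers of other types, 1.88 without class II-rich cells, 1.95 with equal weight per cell and 1.92 after thinning. For 2/21-trikine over sIL-2 + IL-21, 0.55 became 0.65, 0.41, 0.49, 0.34 and 0.26 in the same settings, and 0.46 without the 5% of deepest cells. For sIL-2 relative to sIL-2 + IL-21, -1.19 became -1.49 without marker-bearing cells, -1.34 without the deepest cells, -1.40 without class II-rich cells, -1.61 with equal weight and -1.66 after thinning. In that comparison the count of members past the mark rose from 1 to 2 with 0 *Lyz2* UMIs, 3 with median-of-ratios scaling, 4 in all kept cells, 4 without the deepest cells, 4 after thinning, and 6 with equal weight, without marker-bearing cells or without class II-rich cells. These counts include *H2-DMb1* and *Ciita*, which were under 1 CPM. Without class II-rich cells, 0 were on the higher side and 6 on the lower side. The share of all genes past the mark is not given for each setting, so nothing is read from these counts. In the main setting, without the 1 CPM limit, 21.7% of 22995 genes were past it on the higher and 20.6% on the lower side. Without class II-rich cells *Ciita* had -0.57 [-1.32, 0.14]. That setting removes cells by their own *H2-Aa* and *H2-Eb1* UMIs, so the ratios of these genes are partly set by it. The causes were not tested. The shares of T cells with *Cd74* (1.92%, 7.14% and 6.31%) were 10.3%, 25.03% and 25.8% without thinning, 1.04%, 4.12% and 3.26% at 1000 UMIs, 4.17%, 14.6% and 12.6% at 5000 UMIs, and 1.52%, 6.14% and 5.11% without marker-bearing cells; that filter kept 4627, 7675 and 5753 T cells, since T cells also express some of the markers. Of the values for single members other than *Cd74*, 152 stayed within their counting interval and 46 moved out of it. No paired analysis was possible because each group had 1 library, and no library could be left out. Depth limits *Ciita* and *H2-DMb1*, which had at most 172 UMIs in the T cells of any library.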

Other observations

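The class II-rich T cells that had no melanoma UMI and none of the 17 rare markers of other types (24, 63 and 39 cells) were set against the T cells that were not class II-rich, over 5110 genes with at least 20 CPM; the set was chosen after its values were seen, so these are descriptions. Genes were ordered by the lowest of their 3 log2 ratios. Outside the members *Dscam*, a cell adhesion gene, came first. It was at 123, 126 and 173 CPM in the class II-rich cells against 33.8, 29.2 and 46.5 CPM in the others. *Serpina3g*, a serine protease inhibitor, followed with 53.7, 60.3 and 71.4 against 24.5, 23.2 and 19.3 CPM. After *Chchd10* and *Napsa* came *Ikzf2*, which encodes Helios, with 295, 248 and 190 against 120, 158 and 109 CPM. *Cd74* itself was at 359, 388 and 488 CPM in these cells, and *H2-DMa* at 32.4, 37.0 and 33.1 CPM against 17.3, 19.9 and 17.8 CPM. The levels of *Cd74* in these cells differed less between libraries than in the other T cells, where they were 12.0, 44.5 and 31.8 CPM. The cutoff asked for the same *H2-Aa* and *H2-Eb1* UMIs in every library, and *Cd74* was found more often with these genes. A smaller difference can follow from that cutoff, so nothing is read from it.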
